A study of Mus musculus with 6 samples.

Results

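NRF2 pathway genes were followed in mouse CD8+ T cells grown with or without AOA, aminoxyacetic acid, which blocks enzymes that use the vitamin B6 cofactor PLP. Genes were chosen by name: Nqo1, Hmox1, Gclc, Gclm, Txnrd1, Srxn1, Slc7a11, Gsr, Nfe2l2 and Keap1. Of these 10 symbols, 9 were matched in the deposited table of 11922 genes, and Slc7a11 was not analysed here. The list was drawn up around the rise of Nqo1 in the same comparison of AOA with vehicle, so fold changes of the 9 genes are given as a description with no p-value.

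Splenic CD8+ T cells of C57BL6/J mice, enriched with magnetic beads, were activated with anti-CD3/anti-CD28 beads and IL-2 at 100 units per ml. After 72 hours the cells were washed and expanded in IL-2 for another 4 days, so RNA was taken on day 7. Cultures received water (vehicle) or 0.25 mM AOA throughout, and each of 3 donor mice gave 1 culture to each group. The labels number the donors 1 to 3 in both groups, so values within a mouse compare cultures of the same donor. All 6 cultures shared strain, activation and cytokine, and the labels give neither age nor genotype beyond the strain. Per the methods, the culture medium also contained β-mercaptoethanol, a thiol.

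NRF2, encoded by Nfe2l2, is a transcription factor that pairs with small MAF proteins on antioxidant response elements near genes of glutathione and thioredoxin metabolism, quinone reduction and haem breakdown. KEAP1 binds NRF2 and presents it to the CUL3 ubiquitin ligase for destruction, and oxidation or alkylation of KEAP1 cysteines lets NRF2 accumulate. Because this switch acts on the protein, Nfe2l2 and Keap1 transcripts need not move when the pathway does. BACH1 and BACH2 occupy the same elements as repressors. In activated T cells, glutathione made by the pathway's enzymes supports growth.

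Promoter sequence is shown first because it allows Nqo1 to be set beside other targets at the letter level. RefSeq windows of GRCm38.p6, from 250 bases before to 50 bases after an annotated start site, were found for 7 of the 10 genes. They were searched on both strands for TGACNNNGC, the core of an antioxidant response element. This core was present in 17.0% of the 9438 tested genes with a window and in 12.4% of all 32851 windows. The 250 bases before the Nqo1 start site, on the minus strand at chr8:107403206-107403455, held no match. They are printed because Nqo1 changed most among the 9 genes.

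Nqo1: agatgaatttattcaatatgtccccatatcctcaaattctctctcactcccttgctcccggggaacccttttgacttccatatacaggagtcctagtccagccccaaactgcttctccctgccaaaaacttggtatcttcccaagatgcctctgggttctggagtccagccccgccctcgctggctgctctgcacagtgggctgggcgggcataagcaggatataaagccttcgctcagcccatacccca

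Matches were found in 4 of the 6 measured genes with a window, namely Gclm, Txnrd1, Srxn1 and Nfe2l2. Those of Gclm, Txnrd1 and Nfe2l2 are printed with up to 30 bases on either side, and capitals mark the match. It reads on the strand opposite to the gene for Gclm, Txnrd1, Srxn1 and Prdx1 and on the gene's strand for Nfe2l2. The Gclm match began 134 bases before the start site, within chr3:122245393-122245461 on the plus strand. That of Txnrd1 began 92 bases before the middle of its 3 annotated start sites, within chr10:82859084-82859152 on the plus strand and inside the gene. For Nfe2l2 the match began 240 bases before the start site, within chr2:75704865-75704913 on the minus strand. Prdx1, a thioredoxin-dependent peroxidase taken up below, is added as a wider target that rose, with its match 133 bases before the start site within chr4:116685436-116685504 on the plus strand.

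Gclm: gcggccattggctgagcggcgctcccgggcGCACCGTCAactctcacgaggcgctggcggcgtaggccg
Txnrd1: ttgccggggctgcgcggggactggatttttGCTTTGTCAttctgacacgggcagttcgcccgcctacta
Nfe2l2: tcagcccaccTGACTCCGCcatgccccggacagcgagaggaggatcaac
Prdx1: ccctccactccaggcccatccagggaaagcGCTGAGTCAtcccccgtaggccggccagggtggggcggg

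In Srxn1 the match, GCTAGGTCA on the gene's strand, began 28 bases after the start site at chr2:152105552-152105560. Among the 3 members with a window that rose, 2 held the core, and so did the only fallen member with a window. Among wider targets described below, it was present for 4 of 10 genes that rose, 0 of 3 that fell and 3 of 10 that were not called. The 3 that fell were Glrx, Gstm1 and Osgin1. Of these, Gstm1 and Osgin1 passed the low-count filter through the vehicle libraries, so no contrast is read from these counts. A match is a description of these letters, and elements outside the windows were not searched.

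Total counts lay between 12881962 and 18934869 with vehicle and between 18696114 and 21997078 with AOA. Values below are counts-per-million (CPM) on library sizes adjusted by the TMM method of edgeR. A gene is called, or said to rise or fall, when its adjusted p is under 0.05 in the quasi-likelihood test over 11759 genes. On this rule 53.0% of all genes tested were called, 26.2% higher and 26.8% lower with AOA. Libraries of a group were not alike, since vehicle replicate 2 and AOA replicate 1 stood farther from the other libraries of their group than those did from each other. Within groups the chi-square per gene was 10.02 and 10.5 for the closest pairs and from 55.1 to 71.1 for pairs with either library. Calls that changed without these libraries are named with each list. CD8 T cell markers were high throughout, with a summed level of 2908 to 3737 CPM with vehicle and 3994 to 4644 CPM with AOA for Cd8a, Cd8b1, Cd3d, Cd3e and Cd3g (2 of 5 higher, 0 lower). Those called were Cd8a and Cd8b1, at means of 785 and 1608 CPM for Cd8a and 947 and 1473 CPM for Cd8b1, and the part of these shifts in the results below was not tested. CD4 T cell markers summed to between 153.6 and 204.9 CPM with vehicle and 32.4 to 53.1 CPM with AOA (0 of 3 higher, 2 lower). For B cell markers the sums were 12.6 to 16.6 and 22.6 to 30.7 CPM (1 of 4 higher), and for NK cell markers 145.3 to 307.7 and 127.8 to 212.9 CPM (1 of 2 tested lower). Most of the NK sum was Eomes, at means of 150.9 CPM with vehicle and 155.2 CPM with AOA, which was not called. Klrb1c was the NK marker called lower, at means of 57.7 and 7.14 CPM. None of the 5 erythroid markers was measured here.

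Of the 9 genes, 5 were higher in every AOA library than in any vehicle library, against 31.0% of all genes tested, 2 were lower in every AOA library, against 31.1%, and 2 overlapped. The fit over all genes called the same 5 higher and the same 2 lower, and for genes chosen on this comparison a call is a label of the fit and no test. Nqo1 rose by far the most, and Txnrd1, Gclm, Gclc and Gsr rose by at most 1.94-fold. Hmox1 and Srxn1, both widely used as readouts of NRF2, fell. Levels of Nfe2l2 and Keap1 were not called. The share called in either direction among all genes was 53.0%, and since the list was built on this comparison nothing is read from these counts. Their median log2 fold change was 0.55, against -0.02 over all tested genes. All 9 passed the low-count filter, Nqo1 through the AOA libraries (3 of 3, against 2 of 3 with vehicle) and the others with every library of both groups.

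**Figure D1:**
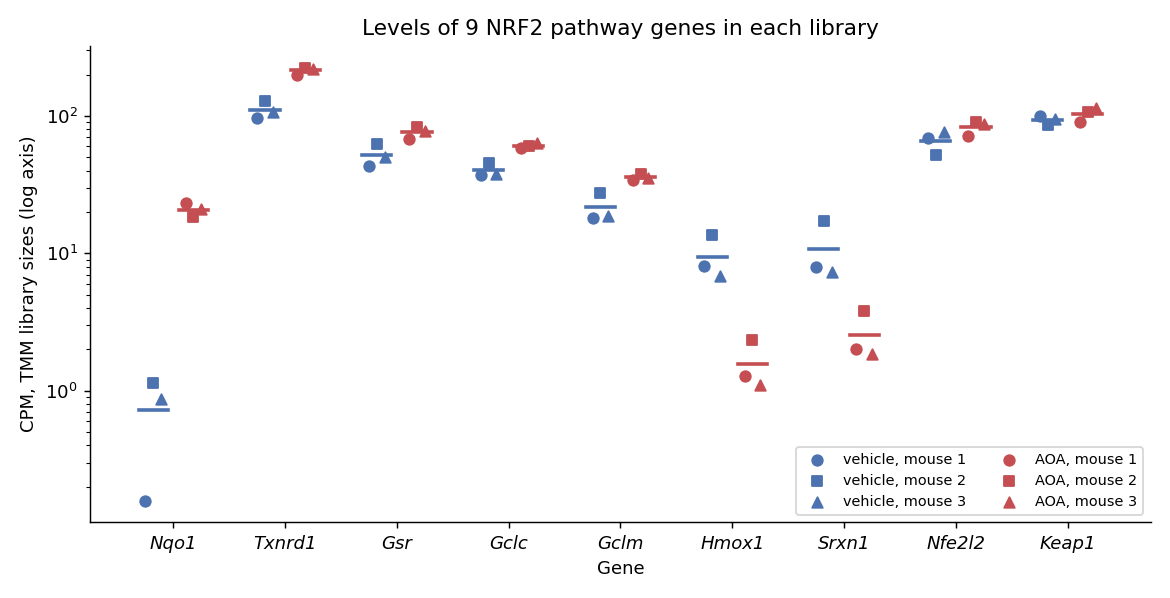
Level of each gene in each library in CPM on a log axis, with vehicle in blue, AOA in red, a symbol for each mouse and a line at the group mean of 3 libraries. Nqo1 sits near or under 1 CPM in all vehicle libraries and near 20 CPM in all AOA libraries, while Hmox1 and Srxn1 sit lower with AOA, and the groups overlap for Nfe2l2 and Keap1.

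Nqo1 (Entrez gene 18104, chromosome 8 of GRCm38 from 107388225 to 107403205) encodes NAD(P)H quinone dehydrogenase 1, which reduces quinones to hydroquinones without a radical intermediate. Vehicle libraries of mice 1, 2 and 3 held 2, 18 and 16 counts of it, while the AOA libraries of these mice held 502, 348 and 414. In CPM these were 0.159, 1.14 and 0.869 with vehicle and 23.1, 18.4 and 20.9 with AOA. Every AOA library was above every vehicle library, and vehicle replicate 1 was lowest. Group means were 0.723 ± 0.507 CPM (SD, n = 3) and 20.8 ± 2.34 CPM (SD, n = 3), a ratio of 28.8. The log2 fold change was 4.77 (standard error 0.41), which ranked 15 among 11759 genes ordered from the largest rise. Within mice 1, 2 and 3 the rise was 6.42, 3.88 and 4.42 on the log2 scale, and leaving out each library moved the fold change between 4.39 and 5.21.

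Txnrd1 (Entrez gene 50493, chromosome 10 from 82833951 to 82897724) encodes cytosolic thioredoxin reductase, the selenoenzyme that returns thioredoxin to its reduced form. Its levels were 97.3, 127.8 and 106.1 CPM with vehicle and 198.6, 224.8 and 219.5 CPM with AOA. The groups did not overlap. The other 4 genes that rose were separated in the same way. The log2 fold change was 0.96 (standard error 0.15), and 1.03, 0.81 and 1.05 within mice 1, 2 and 3. The rise was of like size in each mouse, with vehicle replicate 2 highest of its group.

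Gsr (Entrez gene 14782, chromosome 8 from 33653238 to 33698162) encodes glutathione reductase, which recycles oxidised glutathione with NADPH. Levels were 43.5, 62.1 and 50.4 CPM with vehicle and 68.5, 83.1 and 77.4 CPM with AOA, with no overlap but a narrow gap between vehicle replicate 2 and AOA replicate 1. The log2 fold change was 0.55 (standard error 0.16). Its call was the least secure of the 5 rises, because it was lost without vehicle replicate 1 (0.46), without vehicle replicate 3 (0.55) and without AOA replicate 2 (0.49).

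Gclc and Gclm encode the catalytic and modifier subunits of glutamate-cysteine ligase, the enzyme of the rate-limiting step of glutathione synthesis. Gclc (Entrez gene 14629, chromosome 9 from 77754535 to 77794489) was at 37.1, 45.7 and 37.7 CPM with vehicle and 58.8, 60.5 and 63.4 CPM with AOA, which is 0.60 higher on the log2 scale (standard error 0.13). Gclm (Entrez gene 14630, chromosome 3 from 122245487 to 122267215) was at 18.2, 27.7 and 18.8 CPM with vehicle and 34.4, 37.5 and 35.4 CPM with AOA, which is 0.73 higher on the log2 scale (standard error 0.18). Both subunits were higher in every AOA library, and both rises were smallest in mouse 2, at 0.40 for Gclc and 0.44 for Gclm. Per length, Gclc stood to Gclm at 1.15 ± 0.131 (SD, n = 3) with vehicle and 1.03 ± 0.0538 (SD, n = 3) with AOA, and these ratios overlapped between groups. Such ratios are descriptions with no test.

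Hmox1 (Entrez gene 15368, chromosome 8 from 75093618 to 75100593) encodes haem oxygenase 1, which opens the haem ring and releases iron. Its levels were 8.10, 13.6 and 6.79 CPM with vehicle and 1.29, 2.33 and 1.11 CPM with AOA. Every AOA library was below every vehicle library, a mean 6.02-fold higher with vehicle. The log2 fold change was -2.59 (standard error 0.38), and it was nearly equal in the 3 mice, at -2.55, -2.49 and -2.50. Hmox1 is also a gene of macrophages, and most myeloid markers measured moved with it: summed over the 5 of 8 that were measured they reached 59.1 to 77.7 CPM with vehicle and 4.28 to 8.67 CPM with AOA. All 3 that were tested were called lower, namely Itgam, Cd68 and Fcgr3, the last of which passed the filter through vehicle, with 1 AOA library over it. Most of the sum was Itgam, at 45.4 CPM with vehicle and 1.21 CPM with AOA on average. Cd14, a defining myeloid gene, had 13, 16 and 5 counts with vehicle and 0, 1 and 0 with AOA. Lyz2 went the other way, with 0, 5 and 0 counts against 6, 22 and 2. Cells had been selected for CD8α on magnetic columns before culture. The part of myeloid cells in the fall of Hmox1 was not tested, and in bulk RNA fewer cells of a type and less RNA per cell cannot be told apart.

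Srxn1 (Entrez gene 76650, chromosome 2 from 152105524 to 152111376) encodes sulfiredoxin, which repairs peroxiredoxins after overoxidation. Levels were 8.02, 17.1 and 7.33 CPM with vehicle and 2.02, 3.81 and 1.87 CPM with AOA. The groups did not overlap, and mouse 2 was highest in both groups, as it was for Hmox1. The log2 fold change was -2.08 (standard error 0.41), with -1.93, -2.13 and -1.91 within mice 1, 2 and 3. Both falls kept their call without vehicle replicate 2, at -2.20 for Hmox1 and -1.55 for Srxn1, and without AOA replicate 1 as well, at -2.08 and -1.41.

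**Figure D2:**
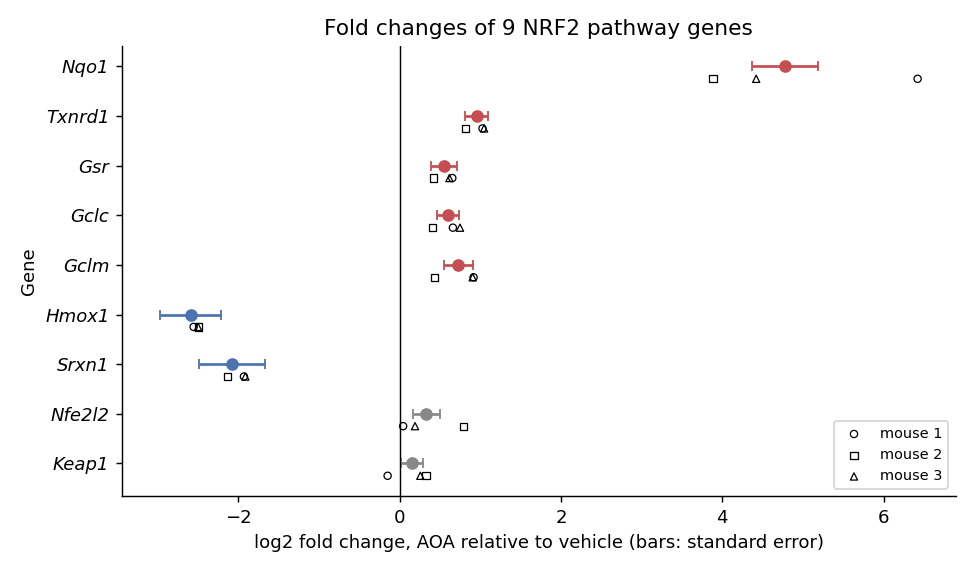
Log2 fold change of each gene with AOA relative to vehicle, with bars of 1 standard error from the edgeR fit (red called higher, blue called lower, grey not called) and open symbols for the difference within each mouse. Nqo1 lies at 4.77, Hmox1 and Srxn1 lie at -2.59 and -2.08, and the other rises lie between 0.55 and 0.96.

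Transcripts of the switch itself differed less. Nfe2l2 (Entrez gene 18024, chromosome 2 from 75675513 to 75704663) was at 69.0, 52.3 and 76.4 CPM with vehicle and 71.2, 90.5 and 87.3 CPM with AOA, and the groups overlapped. Its log2 fold change was 0.33 (standard error 0.17), with 0.04, 0.79 and 0.19 in mice 1, 2 and 3. The difference was called in 2 alternatives, with the mouse as a replicate block after removal of the length trend (0.41) and without vehicle replicate 2 and AOA replicate 1 together (0.32). Keap1 (Entrez gene 50868, chromosome 9 from 21229730 to 21239332) was at 99.8, 85.3 and 95.2 CPM with vehicle and 90.1, 107.1 and 113.8 CPM with AOA. Its log2 fold change was 0.15 (standard error 0.14), and mouse 1 went the other way at -0.15. An exon of Keap1 shares 206 bases with Gm16754, an antisense gene of the GENCODE annotation, and the sources used here do not state whether counting used the strand.

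Compared per length, as counts per kilobase scaled to the same sum in each library, Txnrd1 led both groups, at 57.0 ± 10.3 (SD, n = 3) with vehicle and 108.1 ± 17.1 (SD, n = 3) with AOA. With vehicle it was followed by Keap1 (43.1), Gsr (40.4) and Nfe2l2 (35.5), whose ranges overlapped in turn, then by Gclc (24.3), Gclm (21.7), Hmox1 (12.6) and Srxn1 (8.04), each overlapping the next. Nqo1 came last at 0.973 ± 0.702 (SD, n = 3), below every Srxn1 value. With AOA, Nqo1 reached 26.9 ± 1.65 (SD, n = 3), below all values of Gclm (35.0) and above all of Hmox1 (2.04) and Srxn1 (1.86), which now closed the order and overlapped. Nqo1 was thus the scarcest of the 9 transcripts with vehicle and moved to the seventh place with AOA. The ratio of Nfe2l2 to Keap1 per length was 0.822 ± 0.111 (SD, n = 3) with vehicle and 0.937 ± 0.0471 (SD, n = 3) with AOA, and the groups overlapped.

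**Figure D3:**
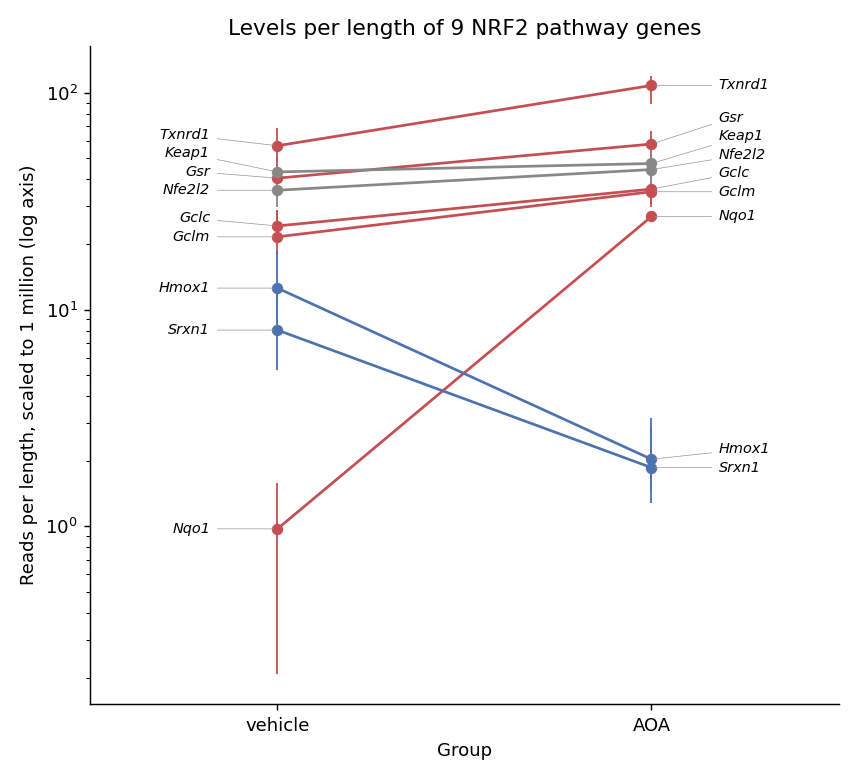
Mean level per length of each gene in each group on a log axis, with vertical lines from the lowest to the highest of 3 libraries (red called higher, blue called lower, grey not called). The line of Nqo1 climbs from 0.973 to 26.9 and crosses those of Hmox1 and Srxn1, which drop to 2.04 and 1.86.

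Other targets were taken from 4 lists of commonly named NRF2 targets, with none of the 10 genes above among them. Of 44 such genes, 28 were measured and tested, and 10 were called higher and 6 lower, or 35.7% and 21.4%, against 26.2% and 26.8% of all genes tested. Their median log2 fold change was -0.05, close to the -0.02 of all genes. Without vehicle replicate 2, 11 were called higher and 11 lower, while 29.6% and 27.9% of all genes tested were, and Gss, Idh1, Pir, Fth1 and Blvrb were added to those called lower. With AOA replicate 1 left out as well, 11 were called higher and 14 lower, while 33.8% and 32.8% of all genes were, and Prdx6, Cbr1 and Ptgr1 were added to those called lower. Of the 6 called lower, Osgin1, Abcc3 and Gstm1 passed the low-count filter through the vehicle libraries, with 0, 0 and 2 AOA libraries over its level of 0.531 CPM, so they are given without a p-value. Leaving them aside, 3 were called lower.

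Of 7 genes of glutathione use and the thioredoxin system, 3 rose and 2 fell, where 26.2% of all genes tested rose and 26.8% fell, and without Gstm1 1 fell. Prdx1, a peroxiredoxin that removes hydrogen peroxide, was at 110.6, 183.5 and 131.4 CPM with vehicle and 698.5, 480.1 and 456.2 CPM with AOA. On the log2 scale it rose by 1.94 with a standard error of 0.24 (edgeR, adjusted p = 2.16e-04). Txn1, thioredoxin itself, rose by 1.46 (adjusted p = 2.79e-04) and Gstp1, a glutathione transferase, by 0.51 (adjusted p = 0.0157). Prdx1 and Txn1 were highest in AOA replicate 1. Glrx, which uses glutathione to reduce disulfides, fell (-0.93, adjusted p = 0.00516 by edgeR). Gstm1, another glutathione transferase, was at 1.43, 2.54 and 2.12 CPM with vehicle and 0.690, 0.687 and 0.151 CPM with AOA. Reads with more than one position were not counted, so levels of Gstp1 and Gstm1, which have close relatives, are uncertain and may be too low. The same holds for Prdx1 and Txn1, which have processed copies elsewhere in the genome.

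Partners within the thioredoxin system were compared by their ratios, without a test. Txnrd1 per Txn1, per length, went from 0.158 ± 0.0144 (SD, n = 3) with vehicle to 0.116 ± 0.0304 (SD, n = 3) with AOA, and all AOA ratios were lower. AOA replicate 1 lay at 0.0816 and the other AOA libraries at 0.130 and 0.137, next to a lowest vehicle value of 0.145. Without vehicle replicate 2 and AOA replicate 1 the means were 0.1498 and 0.1339. Prdx1 per Srxn1, a peroxiredoxin against its repair enzyme, was 27.4, 21.3 and 35.6 with vehicle and 685.2, 250.4 and 485.1 with AOA, and without these libraries the means were 31.5 and 367.7. This was the widest shift among the 4 ratios computed, since its numerator rose while its denominator fell.

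NADPH feeds both glutathione reductase and thioredoxin reductase, and of 5 genes listed for its supply 3 were called higher and 0 lower, against 26.2% and 26.8% of all genes tested. Tkt (transketolase), G6pdx (glucose-6-phosphate dehydrogenase) and Taldo1 (transaldolase) of the pentose phosphate pathway had log2 fold changes of 0.66, 0.59 and 0.36 (adjusted p = 0.0100, 0.0301 and 0.0288 by edgeR). G6pdx makes NADPH itself, whereas Tkt and Taldo1 act in the branch of the pathway that does not. The other NADPH-making enzymes tested, Pgd and Idh1, had log2 fold changes of 0.37 and -0.55 and were not called (adjusted p = 0.105 and 0.133 by edgeR). Without vehicle replicate 2, Pgd was called higher (0.50) and Idh1 lower (-0.80), and Pgd was also called higher without AOA replicate 1 (0.50) and in the blocked fit with the length trend removed. Taldo1 was at 150.9, 157.4 and 163.9 CPM with vehicle and 205.3, 199.8 and 202.8 CPM with AOA, but its call was lost with the mouse as a replicate block (log2 fold change 0.37, adjusted p = 0.0629 by edgeR). The calls of G6pdx and Taldo1 were also lost without vehicle replicate 1, vehicle replicate 3, AOA replicate 2 or AOA replicate 3.

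Among 10 genes of quinone, aldehyde and drug handling, to which Nqo1 belongs by function, 3 were called higher and 3 lower, near the 26.2% and 26.8% of all genes tested. Without Osgin1 and Abcc3, which passed the filter only through vehicle, 1 was called lower. Akr1c13, an aldo-keto reductase of a family of similar genes, rose from 12.04 ± 2.15 to 28.6 ± 7.42 CPM (SD, n = 3), with an adjusted p of 0.00149 by edgeR. Ephx1, microsomal epoxide hydrolase, rose from 9.82 ± 2.10 to 19.9 ± 1.42 CPM (SD, n = 3, adjusted p = 0.00225 by edgeR). Abcc4, an exporter of organic anions, rose by 0.97 on the log2 scale (adjusted p = 0.0137). Of the related exporters, Abcc3 fell from 12, 38 and 32 counts to 2, 6 and 4, and Abcc1 fell with a log2 fold change of -0.98 (adjusted p = 0.00207 by edgeR). Osgin1, an oxidative stress-induced growth inhibitor, had the largest change of all listed genes: 18.3, 28.9 and 17.5 CPM with vehicle against 0.184, 0.264 and 0.252 CPM with AOA. These AOA values rest on 4, 5 and 5 counts, and the fitted log2 fold change was -6.50 with a standard error of 0.34.

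Haem and iron genes, which share the pathway branch of Hmox1, counted 1 rise and 1 fall among 6, against 26.2% and 26.8% of all genes tested. Blvra, biliverdin reductase, which acts just after haem oxygenase, rose from 18.6 ± 3.45 to 32.4 ± 8.53 CPM (SD, n = 3, adjusted p = 0.0125 by edgeR). Slc48a1, a haem transporter, fell from 77.8 ± 0.696 to 47.8 ± 1.61 CPM (SD, n = 3, adjusted p = 9.87e-04 by edgeR). The ferritin chains Fth1 and Ftl1 had log2 fold changes of -0.37 and -0.19 and were not called (adjusted p = 0.0992 and 0.422 by edgeR). Fth1 was called lower without vehicle replicate 2 (-0.46), without AOA replicate 1 (-0.49) and with the length trend removed, in the fits with and without the block. Blvrb, another biliverdin reductase, named after its values had been seen, had the largest log2 fold change of the list, -1.25, and was not called (adjusted p = 0.0543 by edgeR). It was called lower without vehicle replicate 2 (-1.63), its lowest vehicle library, with DESeq2, with total counts only, with the length trend removed and in the blocked fit (adjusted p = 0.0103 by edgeR).

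**Figure D4:**
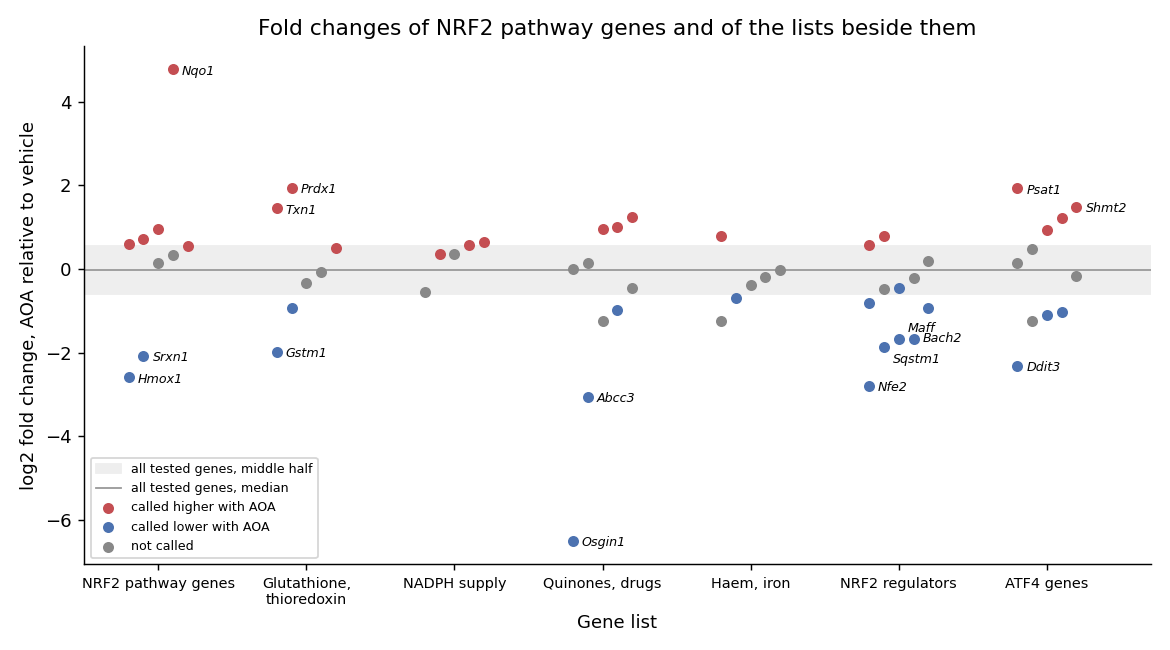
Log2 fold change of each tested gene with AOA relative to vehicle, by list, with called genes in red (higher) or blue (lower), others in grey, and a band from the lower to the upper quartile of all 11759 tested genes. Nqo1 lies above and Osgin1 below every other gene shown, and each list except NADPH supply holds both colours.

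Of 12 genes listed as regulators of NRF2, 7 were called lower and 2 higher, against 26.8% and 26.2% of all genes. Their median log2 fold change was -0.64. The list mixes partners, repressors, ligase subunits and relatives of NRF2, so these counts give no direction for the pathway. Mafg lost its call without either of the libraries that stand apart, and Gsk3b was called higher without AOA replicate 1. Nfe2, a blood-cell relative of NRF2, fell from 6.87 ± 0.795 to 0.987 ± 0.292 CPM (SD, n = 3, adjusted p = 1.10e-04 by edgeR). Sqstm1, which encodes the autophagy adaptor p62 that binds KEAP1 and is itself an NRF2 target, was at 339.7, 508.6 and 320.1 CPM with vehicle and 90.5, 121.3 and 109.7 CPM with AOA. On the log2 scale this was -1.86 with a standard error of 0.21 (edgeR, adjusted p = 1.40e-04). Maff, a small MAF partner, was at 2.94, 1.65 and 2.12 CPM with vehicle and 0.782, 0.793 and 0.504 CPM with AOA. It passed the filter through vehicle, with 2 AOA libraries over it, and without it 6 regulators were called lower. The repressors Bach1 and Bach2, singled out after their values had been seen, also fell (-0.94 and -1.66, adjusted p = 6.25e-04 and 6.37e-04). Bach1 was at 66.7, 55.5 and 70.5 CPM with vehicle and 31.4, 35.8 and 33.6 CPM with AOA. The ligase subunits Rbx1 and Cul3 rose, by 0.80 and 0.57 (adjusted p = 0.00507 and 0.00711).

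Of 11 stress genes of ATF4, a factor that shares some targets with NRF2, 4 were called higher and 3 lower, against 26.2% and 26.8% of all genes tested. Asns and Sesn2 were also called higher without vehicle replicate 2. Psat1, Shmt2 and Phgdh, enzymes of serine and one-carbon metabolism, had log2 fold changes of 1.93, 1.49 and 1.22. Ddit3, Trib3 and Atf4 itself, of the stress response proper, had -2.31, -1.09 and -1.03. The largest adjusted p among these 6 was 0.00104, for Shmt2 (edgeR).

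Genes nearest to Nqo1 in profile were found by Euclidean distance between centred log2 CPM values over the 6 libraries, among 8761 other genes with a mean of at least 10 CPM. They were Ccn3 (distance 1.28), Fsd1l (1.39), Cdc6 (1.65), Thbs1 (1.72) and Chek1 (1.85), with mean levels from 0.650 to 5.10 CPM with vehicle and from 28.3 to 75.8 CPM with AOA. The closest of the NRF2 pathway genes was Txnrd1, which ranked 1049 at a distance of 5.06, and Keap1 was farthest at 6.13. Hmox1 and Srxn1 were under the level limit. The distance is on unscaled log2 values, so it follows the size of the rise, and genes that rose by less than 1 cannot lie close to Nqo1.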

How the data were processed

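RNA of 3 vehicle and 3 AOA cultures was sequenced from stranded mRNA libraries as paired reads. For alignment the authors ran STAR without changed parameters, and reads with more than one position did not enter their gene counts. The processing notes of the submitters also name bcl2fastq, featureCounts, DESeq2 and mm10. Sources used here do not state the annotation, the strand setting or any gene filter. The deposited values are raw counts per gene with an Entrez number and a gene length.

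The fit to the counts used edgeR 4.0.16 under R 4.3.3: filterByExpr with a minimum count of 10, TMM factors, and the quasi-likelihood test in its robust form with no block, with Benjamini-Hochberg adjustment over all genes and a threshold of 0.05. Standard errors are the fold change divided by the root of the F statistic. CPM was computed on TMM-scaled library sizes, with a prior count of 2 on the log2 scale. Members and lists were chosen with earlier results of these data known. All 10 members are named. From each list up to 3 called genes per direction with the largest absolute fold change are named, and the 5 genes nearest to Nqo1. Of 67 list genes, Gpx2, Me1 and others that were not measured were not used here.

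Same-numbered cultures came from the same mouse by the donor number in the labels, and across genes their departures from the mean of their group had r of 0.0868, 0.189 and 0.194. Alternatives were DESeq2 1.42.0, limma 3.58.1 (voom), other size factors, other filters, the mouse as a block, removal of trends on gene length, each library left out, and a log2 fold change of at least 1. Leaving out vehicle replicate 2 and AOA replicate 1 together, in the fits and the ratios, was chosen after seeing the data. Labels do not say whether libraries were prepared in batches. The fitting steps were run on simulated counts in which few genes changed. They therefore do not check the calls in data where 53.0% of genes were called. Coordinates and promoter windows are from RefSeq on GRCm38.p6, which has the sequence of mm10.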

Additional observations from a re-analysis of the deposited data

How the results depend on the processing

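No direction of the 9 NRF2 pathway genes changed under any alternative. Among the refits the call differed for Gsr and Nfe2l2, as given above, and since this comparison chose the list these are descriptions and no support. With at least 10 CPM required in 3 libraries, Hmox1 and Srxn1 left the test, so that 0 members were called lower, and the median of the wider targets was 0.11. A further limit of 1 on the size of the log2 fold change left 1 member higher and 2 lower. Of the wider targets it left 4 higher and 3 lower, where 12.1% and 14.1% of all genes tested were (1418 and 1663). The 3 were Osgin1, Abcc3 and Gstm1, which passed the low-count filter through the vehicle libraries, so nothing is read from them. Without vehicle replicate 2, 11 wider targets and 3297 of all genes were called lower, and without AOA replicate 1 as well 14 and 3862, against 6 and 3147 with all libraries, and the cause was not tested. With each library left out, 4 to 5 members were called higher and 2 lower, 8 to 11 wider targets higher and 6 to 11 lower, 2 to 3 regulators higher and 5 to 7 lower, 4 to 6 ATF4 genes higher and 3 lower, and 2519 to 3499 genes higher and 2433 to 3297 lower in all. The median of the wider targets then lay between -0.17 and 0.03. The regulators Mafg and Mafk lost their call in some of these fits, Mafg without vehicle replicate 2, AOA replicate 1 or AOA replicate 3 and Mafk without vehicle replicate 1 or AOA replicate 3. With the mouse as a replicate block, 5 members were called higher and 2 lower, 9 wider targets higher and 8 lower, and Nqo1 had a log2 fold change of 4.80. The block changed no member's call, and among list genes it ended that of Taldo1 and added Pir, Blvrb and Sesn2. Counting error limits Nqo1 with vehicle, where the lowest library had 2 counts.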

Other observations

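Nqo1 is also a target of the aryl hydrocarbon receptor, a ligand-activated transcription factor, so genes of that receptor were looked up after the values above had been seen. They are given as values without a test. Ahr, the receptor, was at 0.714, 1.58 and 1.09 CPM with vehicle and 6.30, 8.51 and 6.91 CPM with AOA. Its repressor Ahrr was at 1.27, 3.80 and 4.18 CPM with vehicle and 17.1, 14.5 and 13.9 CPM with AOA, with no overlap. Tiparp, a further target, was at 19.5 ± 2.07 and 35.3 ± 9.38 CPM (SD, n = 3). Cyp1b1, a cytochrome P450 of the same response, had 0 counts in all 3 vehicle libraries and 41, 22 and 28 counts in the AOA libraries, at least 23.3-fold higher against a floor of 3 counts over the vehicle group. Arnt, the partner of the receptor, was at 79.4, 65.7 and 80.9 CPM with vehicle and 49.5, 52.5 and 54.9 CPM with AOA. Cyp1a1 was not analysed here.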
